A study of Mus musculus with 6 samples.

Results

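The genes described here are Trp53, which encodes the transcription factor p53, its regulators and targets, and genes of the BCL2 family and the caspases that carry out cell death. The 36 genes were taken by symbol from a table of 32285 mouse genes, and all 36 had a row in it. They were sorted by known role into 3 regulators, 7 genes of cell cycle arrest, 4 genes of growth control and metabolism, 4 genes of DNA repair and nucleotide supply, 3 survival genes and 15 death genes. RNA came from germline stem cells, which are spermatogonial stem cells kept in culture, of the wild-type DBA-GFP line. Cells were grown in complete medium (control, 3 libraries) or in a medium whose name gives 8 mM pyruvate (pyruvate, 3 libraries). All 6 libraries are from this single line. The labels do not state that they are separate cultures, and the spread behind each p-value may therefore be technical.

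p53 is held at a low level in unstressed cells by MDM2, which marks it for degradation, and by MDM4, which blocks its activity. After DNA damage or other stress p53 accumulates and switches on genes that stop the cell cycle, such as Cdkn1a, genes that repair DNA, such as Xpc and Ddb2, and genes that open mitochondria to start death, such as Bax, Bbc3 and Pmaip1. BCL2-family proteins that protect mitochondria oppose the killers, and released cytochrome c then joins APAF1 and caspase 9 in the apoptosome. Male germ cells are known for their sensitivity to DNA damage and for the death of cells that fail to repair it.

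The libraries held 20918312 to 26413080 counts. Levels are given in CPM, counts scaled so that libraries of different depth can be set side by side, with TMM factors that correct for differences in library makeup. On this scale 3 counts were worth 0.116 to 0.143 CPM. A principal component analysis separated control replicate 2 most, with a first score of 36.5 against -4.12 and 0.81 for the other controls, and gave pyruvate replicate 1 the opposite extreme of -27.2. Undifferentiated spermatogonia markers were all detected (14 of 14 tested), with a summed level of 2940 to 3167 CPM in control and 2692 to 3094 CPM in pyruvate libraries. Of these, 3 had an unadjusted p under 0.05 upward (Nanos2, Nanos3 and Sohlh1) and 1 downward (Bcl6b) in edgeR. Their log2 differences, pyruvate minus control, were 0.52, 0.59, 0.47 and -0.50. Of 8 pan-germ cell markers Dppa3, Tdrd1 and Nanos3 had such a p upward, and 0 downward. Over all tested genes the shares were 7.95% upward and 6.44% downward. Summed markers of fibroblast and mesenchymal feeder cells did not overlap between groups, at 333 to 358 CPM in control and 403 to 443 CPM in pyruvate medium. Of these 14 markers 11 were tested, 2 had an unadjusted p under 0.05 upward (Col5a1 and Col1a1) and 1 downward (Thy1), and Dcn, Lum and Fap stayed at or under 0.681 CPM in every library. Col5a1 was the largest part of the sum, at 198 to 209 CPM in control and 232 to 298 CPM in pyruvate medium. Among the tested markers, Col1a1, Col5a1, Fbn1, Twist1 and Acta2 had a higher mean in pyruvate medium. Col1a2, Col3a1, Pdgfra, Pdgfrb, Postn and Thy1 had a lower mean. The macrophage marker Adgre1 was at 0 counts in all libraries, and Sertoli cell markers summed to 23.4 to 28.97 CPM over both groups. Summed markers of differentiating spermatogonia (4 of 4 tested) did not overlap either, at 582 to 620.4 CPM in control and 458 to 575 CPM in pyruvate medium. Of these Sohlh2 had an unadjusted p under 0.05 downward, at 369 to 377 CPM in control and 307 to 319 CPM in pyruvate medium (adjusted p = 0.163 in edgeR), and Kit, Stra8 and Dmrtb1 did not. The part of the germ cell, feeder-type and differentiation markers in the results below was not tested.

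To show the sequence around the start sites of these genes, promoter windows of 300 bases from RefSeq (build GRCm38.p6), which run from 250 bases before a transcription start to 50 after it, were searched for the p53 consensus decamer, the 10-base element of which p53 needs a pair. The decamer is its own reverse complement, so that both strands were read at once, and overlapping matches were counted separately. Windows existed for 28 of the 36 genes. The 8 genes without a window, which were not searched, were Zmat3, Pmaip1, Xpc, Ddb2, Rrm2b, Tnfrsf10b, Perp and Trp53inp1. A perfect decamer lay in 12 of 39 member windows (30.8%), belonging to 11 genes, and in 2745 of all 32851 windows (8.36%). These genes were picked in part as known p53 targets, so the share is a description of the list. The stretches below, Gtse1 aside, end before the start site. They run 5′ to 3′ on the gene's strand, and carry the decamers in capitals. They are shown for Mdm2 and for the members with a decamer that had an unadjusted p under 0.05 in the comparison of media. The decamer of Gtse1 lies after the start, and only its own bases are given. The stretch of Polk is from a start inside the gene (window chr13:96519138-96519437). The window at the 5′ end of Polk (chr13:96542530-96542829) held 0 decamers.
Cdkn1a, chr17:29090881-29090962, plus strand: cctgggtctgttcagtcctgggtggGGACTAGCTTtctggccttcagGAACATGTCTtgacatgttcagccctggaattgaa
Mdm2, chr10:117710910-117710969, minus strand: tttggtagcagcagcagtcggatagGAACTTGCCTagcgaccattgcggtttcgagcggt
Trp53, chr11:69580259-69580318, plus strand: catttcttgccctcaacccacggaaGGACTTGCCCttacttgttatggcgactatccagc
Ccng1, chr11:40755437-40755496, minus strand: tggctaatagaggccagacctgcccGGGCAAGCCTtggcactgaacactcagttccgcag
Ei24, chr9:36797335-36797369, minus strand: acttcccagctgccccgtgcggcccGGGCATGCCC
Sesn1, second start, chr10:41887241-41887300, plus strand: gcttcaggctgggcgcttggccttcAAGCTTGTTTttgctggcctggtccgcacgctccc
Polk, chr13:96519384-96519437, minus strand: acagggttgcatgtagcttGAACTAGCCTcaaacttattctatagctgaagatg
Gtse1, second start, chr15:85859955-85859964, plus strand: GGGCTTGCCT
Cdkn1a was the member with a pair of perfect decamers separated by at most 13 bases, an arrangement found in 28 of all windows (0.085%). A second window of Cdkn1a (chr17:29093519-29093818) held 0 decamers. Near matches to the decamer were neither searched nor marked. The windows of Eda2r, Plk2, Bcl2l11 and Mcl1 held no perfect decamer, which says only that these letters are not in those windows. Mdm2 and Ccng1 held the decamer at nearly the same distance from the start, at -186 and -185, and their values in the 2 media are given below.

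**Figure D1:**
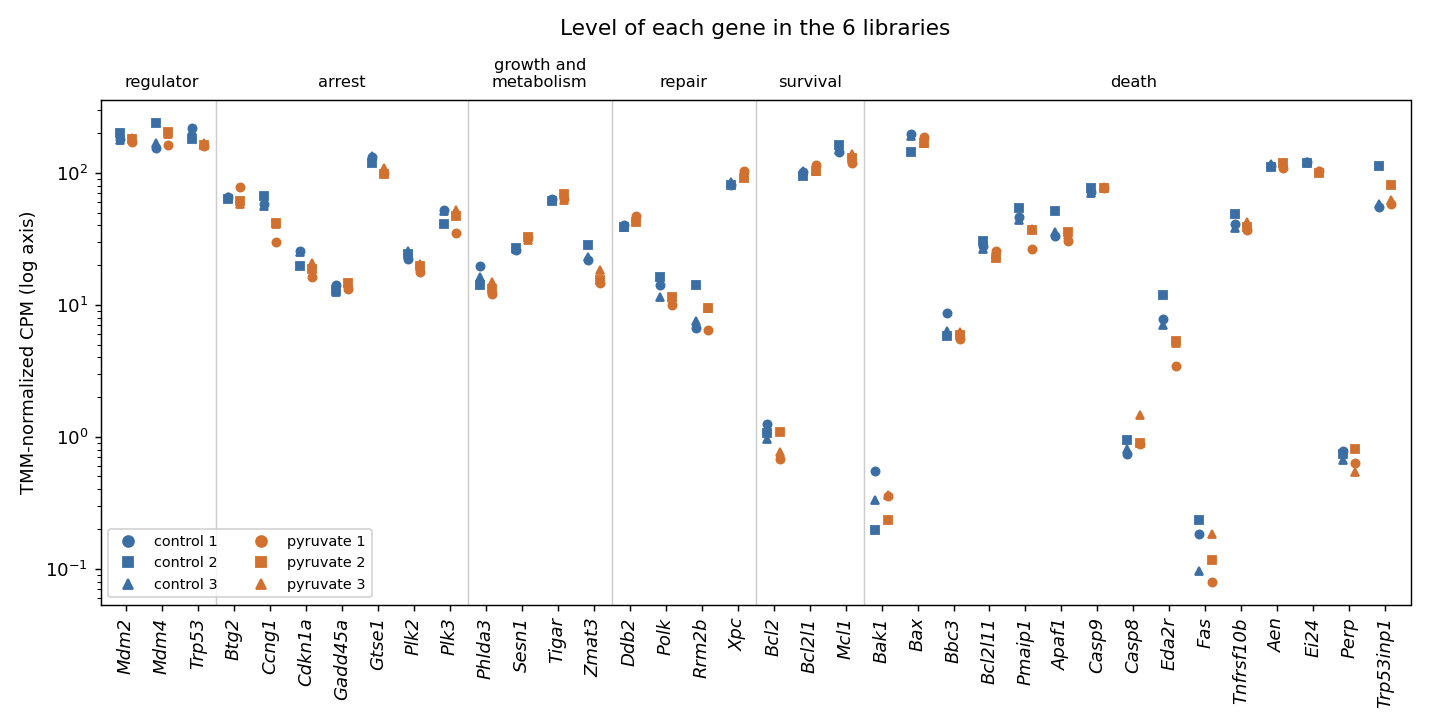
TMM-normalized CPM on a log axis for each of the 36 genes, grouped by role, with 1 point per library (blue, control; orange, pyruvate; circle, square and triangle for replicates 1, 2 and 3). Trp53, Mdm2, Mdm4, Bax and Mcl1 sat above 100 CPM in every library, while Bak1 and Fas lay under 1 CPM.

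Before any comparison, the levels show which branches of the pathway these cells transcribe. Of the 36 genes 7 stood above 100 CPM in every library and 5 under 1.5 CPM in every library. The low genes were Fas, Casp8, Bak1, Bcl2 and Perp. Fas, the death receptor for FAS ligand, had 2 to 6 counts per library, and Bak1, a mitochondrial pore-former like Bax, had 5 to 12. These 2 genes did not pass the filter on low counts, so that 34 members were tested.

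Compared per kilobase of exon, Bax was the most abundant killer, at 113 CPM per kb in control, against 17.6 for Pmaip1, 3.52 for Bcl2l11, 3.26 for Bbc3 and 0.15 for Bak1. Among the survival genes Mcl1 stood at 44.4 CPM per kb and Bcl2l1, which encodes BCL-xL, at 21.7, whereas Bcl2 itself stood at 0.12. Casp8, the initiator caspase of death receptors, stood at 0.29 CPM per kb, against 14.02 for Casp9, the initiator caspase of the apoptosome. Tnfrsf10b, the mouse TRAIL receptor gene, stood at 7.88 CPM per kb.

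The comparison of pyruvate with complete medium asked how transcripts differ when the energy source of the medium changes. In pyruvate medium the measured levels were lower for several p53-responsive genes, chiefly Ccng1, Zmat3, Eda2r and Pmaip1, and for Trp53 itself. Slightly higher levels were measured for the damage recognition genes Xpc and Ddb2 and for Sesn1. Other listed p53 targets differed little, with log2 differences (pyruvate minus control) of -0.064 for Mdm2, -0.019 for Bax, 0.0066 for Btg2 and 0.024 for Aen. Cdkn1a and Bbc3 overlapped between groups, with log2 differences of -0.33 and -0.23 (unadjusted p = 0.0400 and 0.206 in edgeR). With all 6 libraries, 0 of 34 tested members passed at an adjusted p of 0.05 (edgeR quasi-likelihood test, p adjusted by Benjamini-Hochberg over all genes), and 0.0536% of all 14912 tested genes did. At an unadjusted p under 0.05 the count was 15 of 34 members (44.1%), where the share of all genes was 14.4%. Of these 15 members 3 were higher and 12 lower in pyruvate medium, against 7.95% and 6.44% of all genes. DESeq2 called 4 members, all lower (Ccng1, Zmat3, Eda2r and Pmaip1), against 2.13% of all genes and 0.905% in that direction. With limma-voom 0 members were called, against 0.0536% of all genes.

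Levels of the groups did not overlap for 14 of 34 members (41.2%), against 22.5% of all tested genes. In 11 of these the pyruvate libraries were lower (10.6% of all genes) and in 3 higher (11.9% of all genes). The log2 fold change, pyruvate minus control, lay below 0 for 23 members and above 0 for 11, with a median of -0.17 beside -0.0099 for all genes, of which 51.9% lay below 0. Since the genes were chosen with earlier results of these data known, the counts describe the list and are no test of it. The median kept its sign in each of the settings tried, between -0.23 and -0.11, the value nearest 0 being that without pyruvate replicate 1.

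**Figure D2:**
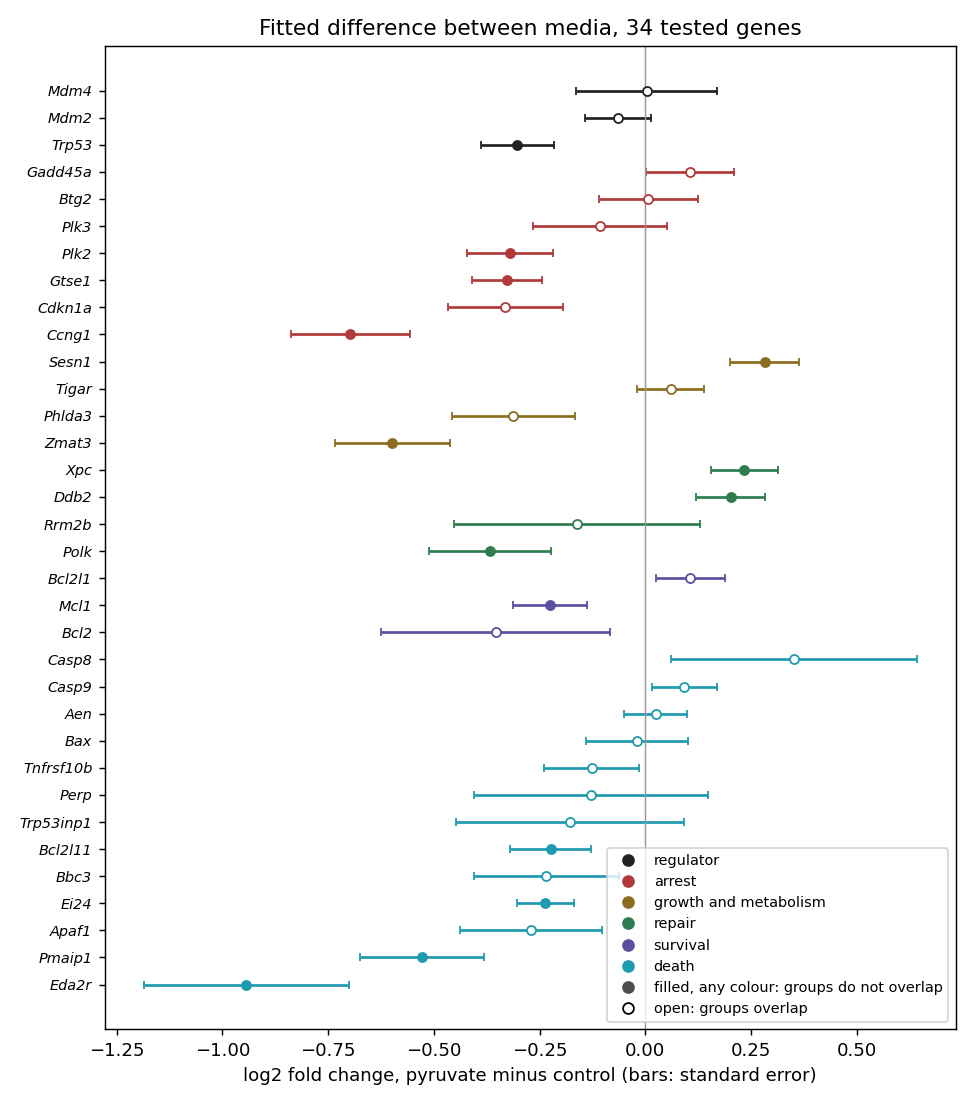
Fitted log2 fold change (pyruvate minus control) with its standard error for the 34 tested genes, coloured by role and filled where the groups do not overlap. Ccng1, Eda2r, Zmat3 and Pmaip1 lie farthest to the left, at -0.70, -0.94, -0.60 and -0.53, and Sesn1, Xpc and Ddb2 are the filled points right of 0.

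Among the regulators, Trp53 mRNA (ENSMUSG00000059552, chromosome 11, 69580359 to 69591873) stood at 218, 179.6 and 208 CPM in control replicates 1, 2 and 3 and at 160.4, 164 and 167 CPM in the pyruvate replicates. Every pyruvate library was below every control library, and control replicate 2 was the control nearest to them. The means were 202 ± 20.03 and 164 ± 3.37 CPM (SD, n = 3 per group), a log2 difference of -0.30 (SE 0.087, edgeR adjusted p = 0.189). Mdm2 (ENSMUSG00000020184, chromosome 10, 117688875 to 117710758), the ubiquitin ligase gene that p53 itself switches on, stood at 181, 202 and 177 CPM in control and 172, 179.8 and 184 CPM in pyruvate medium. The groups overlapped, and the log2 difference was -0.064 (SE 0.078, adjusted p = 0.744). Mdm4 stood at 154, 239 and 169 CPM in control and 162, 204 and 198 CPM in pyruvate medium, with the highest value in control replicate 2. Its log2 difference was 0.0034 (SE 0.17), and the sign turned with DESeq2's size factors (-0.0022).

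Of the 7 arrest genes 5 lay below 0, 4 of them at an unadjusted p under 0.05, with a median of -0.32 that stayed between -0.37 and -0.24 over the settings tried. Over all tested genes 51.9% lay below 0, and 6.44% were lower at such a p. Ccng1 and Gtse1, which are among these 4 arrest genes, encode proteins that act back on p53. The median thus describes the group as sorted and does not measure arrest. Ccng1 (ENSMUSG00000020326, chromosome 11, 40748552 to 40755311) encodes cyclin G1, a p53-induced protein that feeds back on p53 through MDM2. It stood at 57.9, 67.2 and 56.5 CPM in control and at 29.8, 41.6 and 40.7 CPM in pyruvate medium. The groups were well apart, with pyruvate replicate 1 the lowest library. The means of 60.5 ± 5.80 and 37.4 ± 6.58 CPM (SD, n = 3 per group) gave a log2 difference of -0.70, or 1.62-fold (SE 0.14, adjusted p = 0.116). This was the lowest p of the 34 members, and DESeq2 gave an adjusted p of 0.00144.

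Gtse1 (ENSMUSG00000022385, chromosome 15, 85859745 to 85876573) encodes a protein of G2 and S phase cells that restrains p53. It stood at 131, 118 and 134 CPM in control and at 99.1, 98.1 and 109 CPM in pyruvate medium, with no overlap. Its log2 difference was -0.33 (SE 0.083, adjusted p = 0.162). Gtse1 also follows the cell cycle, and the summed level of 5 markers of cycling cells was 1859 to 2125 CPM in control and 1732 to 1968 CPM in pyruvate medium, an overlapping range. Of these markers Pcna was lower, at 242 to 252 CPM in control and 195 to 219 CPM in pyruvate medium (unadjusted p = 0.0127 in edgeR). Its part in the Gtse1 difference was not tested.

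Cdkn1a (ENSMUSG00000023067, chromosome 17, 29090976 to 29100727) encodes p21, the inhibitor of cyclin-dependent kinases through which p53 stops the cell cycle. It stood at 25.6, 19.6 and 24.96 CPM in control and at 16.3, 18.8 and 20.7 CPM in pyruvate medium. Control replicate 2 fell inside the pyruvate range, so the groups overlapped. The log2 difference was -0.33 (SE 0.14, adjusted p = 0.324). Without control replicate 2 it was -0.45 (edgeR adjusted p = 0.0505). Plk2, a polo-like kinase gene induced by p53, stood at 22.3, 24.1 and 25.8 CPM in control and 17.8, 19.6 and 20.5 CPM in pyruvate medium, without overlap (log2 -0.32, SE 0.10, adjusted p = 0.222). The other arrest genes Btg2, Gadd45a and Plk3 overlapped between groups, with log2 differences of 0.0066, 0.11 and -0.11.

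**Figure D3:**
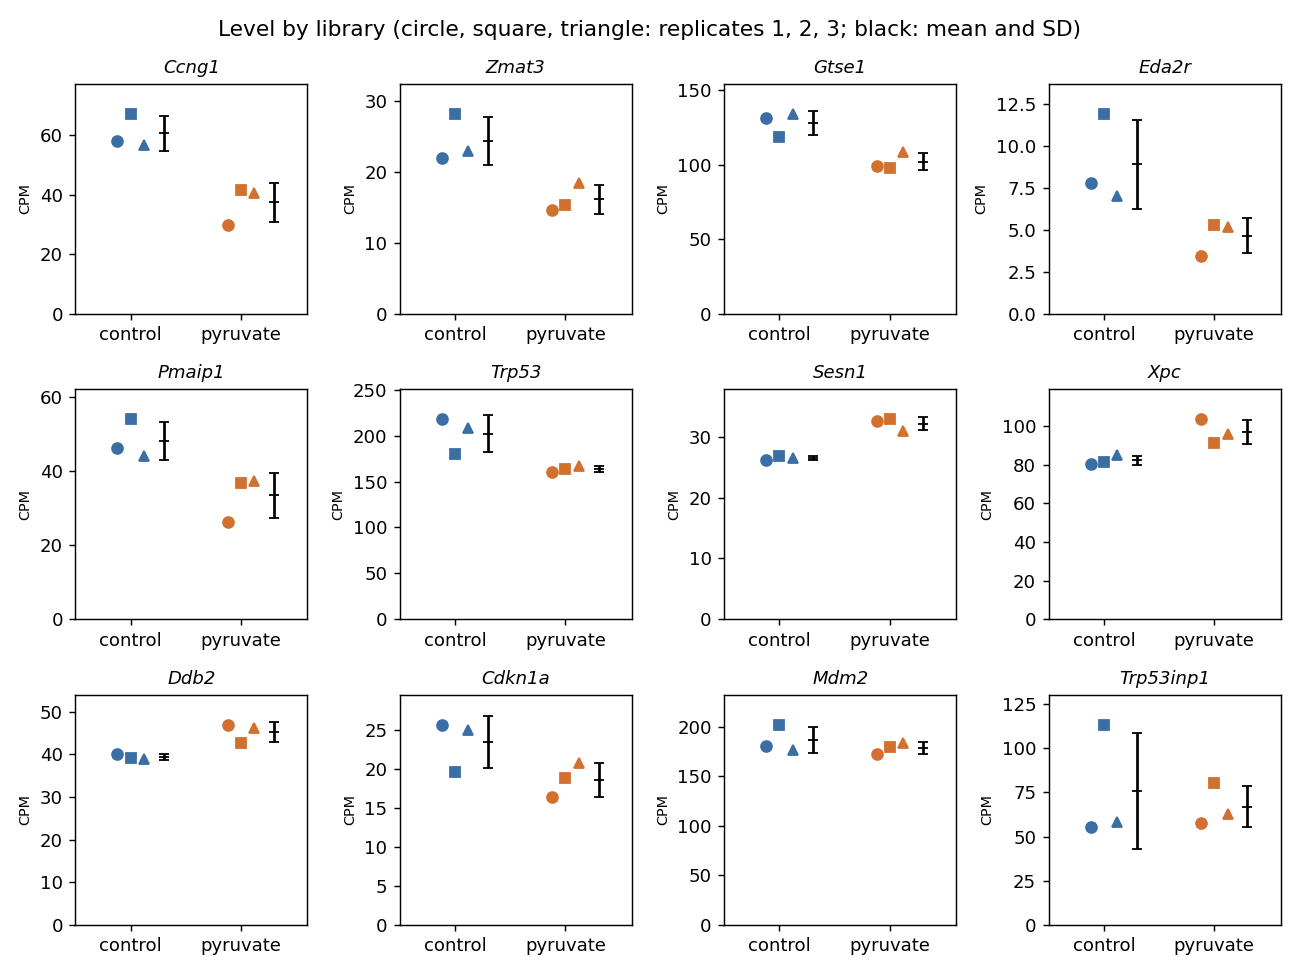
CPM by library for 12 genes, each on its own axis from 0, with the mean and SD of the 3 libraries in black. Ccng1, Zmat3, Gtse1, Eda2r, Pmaip1 and Trp53 are lower in each pyruvate library, Sesn1, Xpc and Ddb2 are higher in each, and Cdkn1a, Mdm2 and Trp53inp1 overlap.

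The growth and metabolism genes went both ways. Zmat3 (ENSMUSG00000027663, chromosome 3, 32334792 to 32366014), which encodes an RNA-binding protein that acts downstream of p53 in growth suppression, stood at 22.01, 28.3 and 23.002 CPM in control. In pyruvate medium it stood at 14.7, 15.3 and 18.5 CPM, below every control library. The log2 difference was -0.60, or 1.51-fold (SE 0.14, adjusted p = 0.134). Sesn1 (ENSMUSG00000038332, chromosome 10, 41809935 to 41908424), a sestrin gene that restrains the growth kinase mTORC1, showed the opposite pattern. It stood at 26.2, 26.8 and 26.5 CPM in control and 32.7, 32.95 and 31.1 CPM in pyruvate medium, with little spread within either group (log2 0.28, SE 0.081, adjusted p = 0.189). Phlda3, a repressor of AKT, stood at log2 -0.31 with overlapping groups (adjusted p = 0.376). Tigar, a phosphatase gene that turns sugar away from glycolysis, stood at 62.5 ± 1.17 CPM in control and 65.2 ± 3.68 CPM in pyruvate medium (SD, n = 3 per group; adjusted p = 0.767).

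Of the 4 repair genes, the pair that recognise damage for nucleotide excision repair were higher in pyruvate medium. Xpc (ENSMUSG00000030094, chromosome 6, 91489305 to 91515888) stood at 80.6, 81.5 and 84.8 CPM in control and 104, 91.1 and 95.7 CPM in pyruvate medium, without overlap (log2 0.23, SE 0.080, adjusted p = 0.242). Ddb2 (ENSMUSG00000002109, chromosome 2, 91211572 to 91236982) stood at 40.1, 39.1 and 38.8 CPM in control and 46.99, 42.6 and 46.1 CPM in pyruvate medium (log2 0.20, SE 0.082, adjusted p = 0.319). Polk, a DNA polymerase gene for copying past damage, stood at 14.2, 16.3 and 11.5 CPM in control and 10.03, 11.4 and 11.2 CPM in pyruvate medium. Its groups were parted by the narrow gap between control replicate 3 and pyruvate replicate 2 (log2 -0.37, SE 0.14, adjusted p = 0.304). The median of the 4 repair genes, 0.020, took either sign, from -0.069 without control replicate 1 to 0.21 without control replicate 2.

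The remaining repair gene, Rrm2b, a p53-induced subunit of ribonucleotide reductase, rested on 1 library. It stood at 6.66, 14.1 and 7.54 CPM in control and at 6.45, 9.50 and 9.54 CPM in pyruvate medium, with control replicate 2 far above all others. The log2 difference was -0.16 with all libraries and 0.26 without control replicate 2, with adjusted p = 0.833 and 0.454. Rrm2b and the other genes named for this pattern were chosen after their values were seen.

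Of the 15 death genes 13 were tested, and 10 of these lay below 0, with 4 at an unadjusted p under 0.05, all lower in pyruvate medium (Eda2r, Pmaip1, Bcl2l11 and Ei24). Over all tested genes 51.9% lay below 0, and 6.44% were lower at such a p. Eda2r (ENSMUSG00000034457, chromosome X, 97333840 to 97377216) encodes a receptor of the tumour necrosis factor family that p53 induces. It stood at 7.77, 11.9 and 7.02 CPM in control and at 3.46, 5.31 and 5.18 CPM in pyruvate medium. All pyruvate values lay below all control values, and control replicate 2 widened the gap. Its log2 difference of -0.94, or 1.92-fold, was the largest of the 34 members (SE 0.24, adjusted p = 0.164), and DESeq2 gave an adjusted p of 0.0146. Without control replicate 2 the difference was -0.67. Tnfrsf10b (42.95 ± 5.59 and 39.4 ± 2.56 CPM) and Casp8 (0.83 ± 0.10 and 1.07 ± 0.33 CPM; SD, n = 3 per group) overlapped between groups.

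Among the BCL2-family killers, Pmaip1 (ENSMUSG00000024521, chromosome 18, 66458533 to 66465565), which encodes NOXA, an antagonist of MCL1, stood apart from the rest. It stood at 46.3, 54.05 and 44.1 CPM in control and at 26.4, 36.7 and 37.3 CPM in pyruvate medium, with pyruvate replicate 1 the lowest. The log2 difference was -0.53, or 1.44-fold (SE 0.15, adjusted p = 0.184; DESeq2 adjusted p = 0.0458), and it was -0.38 without pyruvate replicate 1. Bcl2l11, the gene of the killer BIM, stood at 27.9, 30.5 and 26.3 CPM in control and at 25.4, 22.8 and 24.3 CPM in pyruvate medium, without overlap (log2 -0.22, SE 0.095, adjusted p = 0.336).

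Bbc3, the gene of the p53-induced killer PUMA, stood at 8.68, 5.81 and 6.30 CPM in control and 5.49, 5.93 and 6.22 CPM in pyruvate medium. The groups overlapped, and control replicate 1 was the single high library (log2 -0.23, SE 0.17, adjusted p = 0.570). Bax, the gene of the pore-former itself, stood at 198, 145 and 191 CPM in control and 188, 169.8 and 169 CPM in pyruvate medium. Control replicate 2 was the lowest of the 6 libraries and the other controls were the highest, which left a log2 difference of -0.019 (SE 0.12, adjusted p = 0.956), with a sign that turned when library totals were used for scaling (0.0085).

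The 3 survival genes went different ways, and none passed the test. Mcl1 stood at 144, 162 and 149.8 CPM in control and 119, 130.1 and 139.9 CPM in pyruvate medium, each pyruvate library below each control (log2 -0.23, SE 0.087, adjusted p = 0.295). Bcl2l1 overlapped between groups, at 99.7 ± 4.96 and 107 ± 6.84 CPM (SD, n = 3 per group; log2 0.11, adjusted p = 0.596). Bcl2 stood at 1.24, 1.06 and 0.95 CPM in control and 0.68, 1.09 and 0.77 CPM in pyruvate medium, from 17 to 28 counts per library, and overlapped (log2 -0.35, SE 0.27, adjusted p = 0.593).

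In the apoptosome, Casp9 stood at 71.7, 76.9 and 69.9 CPM in control and 76.9, 77.4 and 78.7 CPM in pyruvate medium. Control replicate 2 lay just inside the pyruvate range (log2 0.092, SE 0.076, adjusted p = 0.621). Apaf1 stood at 33.3, 51.9 and 35.4 CPM in control and 30.5, 35.7 and 33.8 CPM in pyruvate medium, with control replicate 2 alone high (log2 -0.27, SE 0.17, adjusted p = 0.501).

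The other death effectors were led by Ei24 (ENSMUSG00000062762, chromosome 9, 36779159 to 36797393), which encodes a p53-induced protein of the endoplasmic reticulum. It stood at 122, 118 and 121 CPM in control and 103, 101 and 103 CPM in pyruvate medium, with little spread in either group (log2 -0.24, SE 0.068, adjusted p = 0.189). Aen, the gene of a p53-induced nuclease, overlapped at 113 ± 3.45 and 115 ± 5.29 CPM (SD, n = 3 per group). Trp53inp1, which links p53 to autophagy and death, stood at 55.5, 114 and 58.3 CPM in control and 57.9, 80.4 and 62.7 CPM in pyruvate medium. Control replicate 2 was 1.99 times the mean of the other controls, and the log2 difference went from -0.18 with all libraries to 0.24 without it (adjusted p = 0.795 and 0.304).

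Control replicate 2 and pyruvate replicate 1 shaped many of these values. Control replicate 2 was the highest of the 6 libraries for 13 of 34 members (38.2%), against 31.2% of all tested genes, and pyruvate replicate 1 was the lowest for 18 (52.9%), against 23.4%. In control replicate 2, 5 of the 34 tested members were at least 1.4 times the mean of the other controls: Trp53inp1, Rrm2b, Eda2r, Apaf1 and Mdm4. Without control replicate 2, edgeR's test called 5 members, all lower in pyruvate medium, against 4.16% of all genes in that fit, 1.82% lower and 2.33% higher. Trp53 fell by 0.38 on the log2 scale (adjusted p = 0.00934), Ccng1 by 0.62 (0.0320), Gtse1 by 0.38 (0.0177), Zmat3 by 0.48 (0.0464) and Ei24 by 0.25 (0.0429). Over all settings tried, including this one, the adjusted p ran from 0.00359 to 0.478 for Trp53 and from 0.00144 to 0.382 for Ccng1. It ran from 0.00202 to 0.438 for Gtse1, from 0.00175 to 0.402 for Zmat3 and from 0.0128 to 0.469 for Ei24. Without pyruvate replicate 1, Ccng1 stood at -0.55, Zmat3 at -0.53 and Trp53 at -0.28, with adjusted p = 0.283, 0.378 and 0.478.

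**Figure D4:**
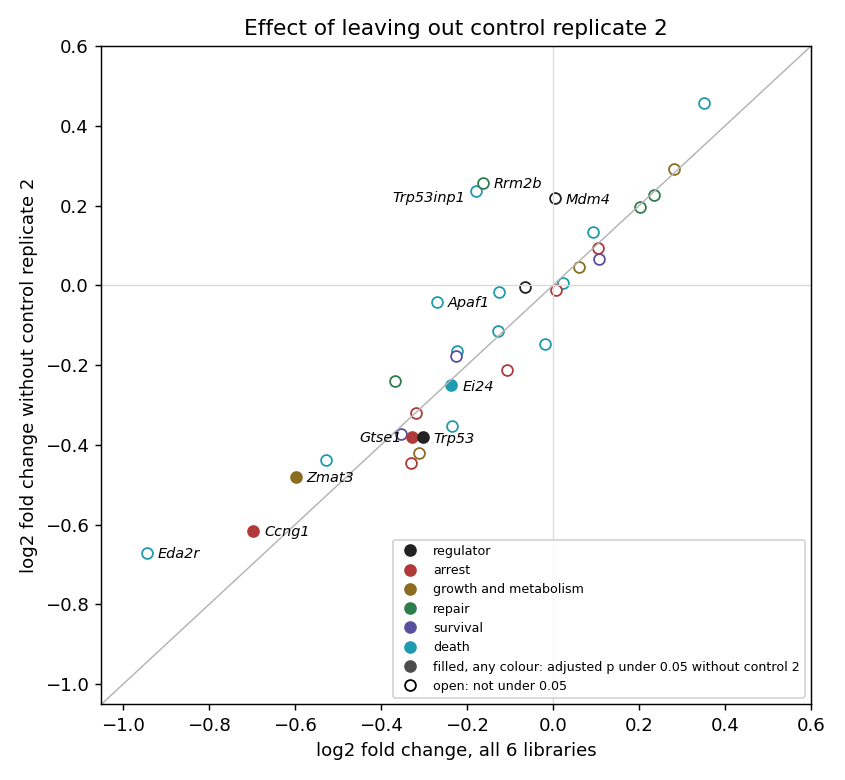
Log2 fold change of the 34 tested genes with all 6 libraries (horizontal) and without control replicate 2 (vertical), coloured by role and filled where the adjusted p without that library is under 0.05. Trp53, Ccng1, Gtse1, Zmat3 and Ei24 are filled, and Rrm2b and Trp53inp1 lie below 0 on the horizontal axis and above 0 on the vertical one.

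Removing each library's trend with GC content and transcript length, with all libraries kept, led edgeR to call 7 members, all lower: Trp53, Ccng1, Gtse1, Zmat3, Eda2r, Pmaip1 and Ei24. In that fit 3.95% of all genes were called, and 2.37% were lower. Trp53 stood at -0.36 (adjusted p = 0.0181), Eda2r at -0.82 (adjusted p = 0.0227) and Pmaip1 at -0.45 (adjusted p = 0.0445). The adjusted p ran from 0.00504 to 0.417 for Eda2r and from 0.00946 to 0.409 for Pmaip1 over all settings tried.

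A further list of 73 genes of the p53 and apoptosis pathways, all of them tested, covered other targets, killers, caspases and damage kinases. By edgeR's test 0 of 73 passed over all genes, and 18 (24.7%) had an unadjusted p under 0.05, 12 higher and 6 lower in pyruvate medium, against 14.4% of all genes. Log2 fold changes lay above 0 for 32 and below 0 for 41, with a median of -0.034. Bmf, a BH3-only killer gene, had the lowest p: it stood at 36.1, 39.4 and 38.7 CPM in control and 55.4, 52.2 and 50.6 CPM in pyruvate medium (log2 0.47, SE 0.084, adjusted p = 0.0973). Its direction was thus opposite to that of Pmaip1 and Bcl2l11. The other genes with a low p that were higher in pyruvate medium were Ndrg1 (log2 0.70), Cd82 (0.38), Fuca1 (0.34), Foxo3 (0.35) and Hipk2 (0.38), with adjusted p between 0.114 and 0.218. Foxo3 encodes a transcription factor that responds to insulin signalling, and Hipk2 a kinase that phosphorylates p53. Psrc1 (log2 -0.59), a spindle gene, and Ak1 (-0.84), an adenylate kinase gene, were lower, with adjusted p = 0.124 and 0.213. Without control replicate 2, 6 of the 73 rose (Bmf, Ndrg1, Cd82, Foxo3, Hipk2 and Crebbp) and 3 fell (Psrc1, Gpx1 and Htra2), against 2.33% and 1.82% of all genes; Crebbp, Gpx1 and Htra2 were chosen after their values were seen.

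Exons of 11 of the 36 members overlap those of another annotated gene, 10 of them on the opposite strand. These are Ddb2, Rrm2b, Cdkn1a, Plk3, Casp9, Gadd45a, Tigar, Bcl2, Bak1 and Ei24, and Bax overlaps a model on its own strand. The strand setting of the counting is not given, and their counts are uncertain to that extent. Among the further pathway genes named, exons of Ndrg1 and Htra2 overlap those of annotated genes on the opposite strand as well.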

How the data were processed

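RNA sequencing of 6 libraries of cultured mouse germline stem cells, 3 per medium, was analysed. The authors deposited raw counts per gene, not normalized. HTSeq 2.0.5, STAR 2.7.11a, cutadapt 4.6, bcl2fastq 2.20 and the build mm10 are listed in the submitters' processing notes. The annotation release, strand setting and filters were not given in the sources used. The table has 3 columns that match none of these samples and entered no step, and 0 lines without a gene identifier.

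Differences were tested with edgeR 4.0.16 in R 4.3.3, using filterByExpr (minimum count 10), TMM factors and the robust quasi-likelihood test without covariates, adjusted over 14912 genes. A standard error is the size of the log2 difference over the root of the F value. Floors of 3 counts cover counting error only. Each library counted as 1 sample. Library pairs within groups differed beyond sampling noise (chi-square per gene 3.07 to 46.8), which does not show that they are separate cultures. Positions, exon lengths and overlaps are from GENCODE M21 (GRCm38), and promoters from RefSeq. Library values are given for 9 genes fixed by name and every member with an unadjusted p under 0.05, and for others where 1 library governed the value. Of the 73 further pathway genes the 8 of lowest p are named. The steps were tested on simulated counts. Alternatives were other scalings and filters, DESeq2 1.42.0, limma-voom (limma 3.58.1), a replicate block, removal of GC and length trends (splines with 5 degrees of freedom), and leaving out each library. The members and lists were chosen with earlier results of these data known.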

Additional observations from a re-analysis of the deposited data

How the results depend on the processing

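The count of 8 genes called over all genes was 14 with library totals, 15 with upper-quartile scaling, 83 with no filter, 317 with DESeq2, 265 with the replicate block, 589 with GC and length trends removed, and 1439 with both of these. It ran from 0 to 625 when 1 library was left out: leaving out control replicates 1, 2 and 3 gave 3, 625 and 1, and leaving out pyruvate replicates 1, 2 and 3 gave 1, 0 and 0. The count of 0 members called was 1 with no filter (beside 83 of 22392 genes). It was 4 with DESeq2 (317 of 14912 genes) and 4 with the replicate block (265 of 14912). With GC and length trends removed it was 7 (589 of 14912). With the replicate block and trends removed it was 12 (1439 of 14912), where Sesn1 and Ddb2 rose and 10 fell. The member count ran from 0 to 5 when 1 library was left out, the 5 standing beside 625 of 15042 genes without control replicate 2. The cause of these changes was not tested.

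Whether replicate numbers pair the samples could not be decided. Same-numbered libraries deviated together with r = 0.31 and 0.31 for numbers 1 and 2 but -0.073 for number 3. The first and second libraries matched their own number best, and the third libraries matched other numbers best. Deviations were taken from each group's mean, so the 3 values of r depend on each other. The median of the members moved from its main value of -0.17 by less than the spread between replicates (0.066) under each setting.

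Log2 differences near 0 changed sign. Mdm4 was -0.0022 with DESeq2's size factors and -0.0019 with DESeq2, and ran from -0.12 to 0.22 when 1 library was left out (-0.12, -0.062, -0.060 and -0.036 without control replicate 1, control replicate 3, pyruvate replicate 2 and pyruvate replicate 3). Bax was 0.0085 with library totals, 0.066, 0.037, 0.0037 and 0.0077 without the same 4 libraries, and -0.15 without control replicate 2. Of the members outside the naming rule, Rrm2b, Trp53inp1, Btg2, Plk3 and Aen also changed sign in 1 to 6 settings, reaching 0.26, 0.24, -0.13, 0.047 and -0.024. The other tested members kept their direction. Depth limits Fas, Bak1, Bcl2, Casp8 and Perp, with at most 32 counts in a library.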
